A study of Mus musculus with 2 samples.

Results

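The PDGF family described here holds 7 genes, Pdgfa, Pdgfb, Pdgfc, Pdgfd, Pdgfra, Pdgfrb and Pdgfrl, chosen by symbol from the 32285 genes listed for mouse synovium, the membrane around joints. Single cells from knees of wild-type mice were profiled with droplet 3' RNA sequencing, in which molecular barcodes (UMIs) count captured transcripts. An MMS library, from mice that also carry the label D14, was compared with a control library for which no such label is given, and each pooled 20 knees. The labels used here do not spell out MMS, and they give neither age nor sex. Both libraries are labelled as goblet cells, the mucus-secreting cells of gut and airway. The data go against that label: 0 of 3765 MMS cells and 0 of 6891 control cells had at least 2 of 8 goblet cell markers, which allows shares of up to 0.0797% and 0.0435%.

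Platelet-derived growth factors are dimeric ligands of a pair of tyrosine kinase receptors, alpha and beta. PDGF-A and PDGF-B are cut to their mature form inside the cell by furin-type convertases, whereas PDGF-C and PDGF-D are secreted with an inhibitory CUB domain that is cut off outside the cell. PDGF-A and PDGF-C act mainly through the alpha receptor, PDGF-B through both and PDGF-D mainly through the beta receptor. In vessels, PDGF-B from endothelium recruits pericytes and smooth muscle cells, which carry the beta receptor. The alpha receptor is a general mark of connective tissue fibroblasts, and PDGF is a known mitogen of synovial fibroblasts. Pdgfrl encodes a secreted protein that resembles the receptors' outer part and lacks a kinase.

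The MMS library held 85597195 UMIs over 5286 barcodes and the control library 84900876 UMIs over 8810 barcodes. After filtering, 3765 MMS cells had a median of 17444 UMIs and 6891 control cells a median of 10990 UMIs. The median mitochondrial share was 3.88% in MMS cells and 3.42% in control cells, and 4 kept barcodes were shared by the libraries. With 1 library per group there was no replicate check and no test. Each interval below is a 95% interval of counting error, and a difference describes these 2 libraries. Levels are a gene's UMIs summed over the cells of a class, scaled to the sum of all UMIs of that class (CPM). UMIs of this kit mark the 3' end of a transcript, so a level carries no transcript length.

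Cells were named from marker genes, with the 7 genes left out of the clustering. Fibroblast-like cells numbered 1522 in MMS and 3213 in control, endothelial-like cells 706 and 1961, and macrophage or monocyte-like cells 496 and 1039. Mural-like cells, a class meant to catch pericytes and smooth muscle of vessel walls, numbered 181 in MMS and 145 in control. On sub-clustering, 97 (53.6%) of them in MMS and 81 (55.9%) in control got neither of these names. In their sub-cluster 0, endothelial markers exceeded mural markers (8254 against 5530 CPM). Fibroblast markers did so in sub-clusters 6 (18439.4 against 8955 CPM) and 8 (13077.5 against 5415 CPM). In sub-clusters 2 and 3, also unnamed, mural markers led. Neutrophil-like cells numbered 309 in MMS and 20 in control. Cluster 29 stayed unnamed. Its 233 cells were all from MMS, its leading genes were Thbs4, Fmod, Col1a1, Col1a2 and Acan, and a cell type cannot be told apart from a feature of that library. Fibroblast-like cells of the groups sat largely in different clusters: clusters 21 and 9 held 41.3% and 33.4% of the MMS cells, whereas clusters 4 and 17 held 23.3% and 18.4% of the control cells. Values within single clusters are therefore given beside those of the class.

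All 7 genes are protein coding. On the GRCm38 assembly with the GENCODE M21 annotation, Pdgfa lies on the minus strand of chromosome 5 from 138976014 to 138997370 and Pdgfra on the plus strand of the same chromosome from 75152292 to 75198215. Pdgfb lies on chromosome 15 from 79995874 to 80014977, Pdgfc on chromosome 3 from 81036416 to 81214040, and Pdgfd on chromosome 9 from 6168584 to 6378850. The positions of Pdgfrb and Pdgfrl are given with their levels.

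RefSeq promoters (GRCm38.p6) were at hand for 4 of the 7 genes, and 3 are shown because their genes differ in where they were detected: a ligand found in many classes, a ligand of fibroblasts and vessels, and a receptor of fibroblasts. Each line gives the 250 bases before a start, 5′ to 3′ on the gene's strand. Capitals mark a GC box (GGGCGG, the Sp1 motif) or a TATA box (TATAAA), searched on both strands; on the strand printed, the GC boxes of Pdgfa read CCGCCC.
Pdgfa, chr5:138994945-138995194, minus strand: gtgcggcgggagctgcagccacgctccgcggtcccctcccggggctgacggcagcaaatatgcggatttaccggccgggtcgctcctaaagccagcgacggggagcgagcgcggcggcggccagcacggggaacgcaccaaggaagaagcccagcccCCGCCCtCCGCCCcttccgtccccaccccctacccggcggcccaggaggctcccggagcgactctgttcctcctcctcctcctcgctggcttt
Pdgfd, chr9:6168236-6168485, plus strand: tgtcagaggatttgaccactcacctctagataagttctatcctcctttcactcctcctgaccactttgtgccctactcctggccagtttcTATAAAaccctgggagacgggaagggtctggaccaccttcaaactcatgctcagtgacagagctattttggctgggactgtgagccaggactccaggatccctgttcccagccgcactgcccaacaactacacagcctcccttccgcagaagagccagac
Pdgfra, chr5:75152001-75152250, plus strand: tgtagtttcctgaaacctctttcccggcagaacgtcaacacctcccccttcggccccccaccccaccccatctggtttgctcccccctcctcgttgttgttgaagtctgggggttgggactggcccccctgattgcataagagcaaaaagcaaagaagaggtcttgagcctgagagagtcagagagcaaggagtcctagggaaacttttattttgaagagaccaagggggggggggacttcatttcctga
RefSeq gives Pdgfa a pair of starts. The promoter shown, the one with more GC boxes, was 72.4% G or C and held 2, while the other was 66.4% G or C and held 1; at least 1 occurs in 32.7% of 32851 promoters of this length. The Pdgfd promoter was 53.6% G or C and held 1 TATA box, which occurs in 12.4% of promoters. The Pdgfra promoter was 54.4% G or C and held neither, against a median of 52.4% over all promoters. The EGR1 motif GCGNGGGCG and the AP-1 motif TGANTCA, present in 4.70% and 6.75% of promoters, were in none of these 3 windows. A match is a description of the letters, and no binding was measured.

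Over all kept cells, Pdgfa and Pdgfc stood higher in MMS, and Pdgfb and the alpha receptor lower. Pdgfa was at 78.3 CPM in MMS and 46.2 CPM in control, a log2 ratio of 0.76 (interval 0.70 to 0.82). Pdgfc was at 27.2 CPM in MMS and 16.4 CPM in control. Pdgfrl, at 45.4 CPM in MMS and 21.7 CPM in control, had the highest ratio of the 7 (1.06, interval 0.98 to 1.15). Pdgfrb was at 97.6 CPM in MMS and 69.8 CPM in control. On the lower side, Pdgfra was at 205 CPM in MMS and 309.7 CPM in control (-0.59, interval -0.62 to -0.57), Pdgfb at 48.4 CPM in MMS and 66.3 CPM in control, and Pdgfd at 11.0 CPM in MMS and 12.8 CPM in control. These totals move with the mix of cells in each library.

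**Figure D1:**
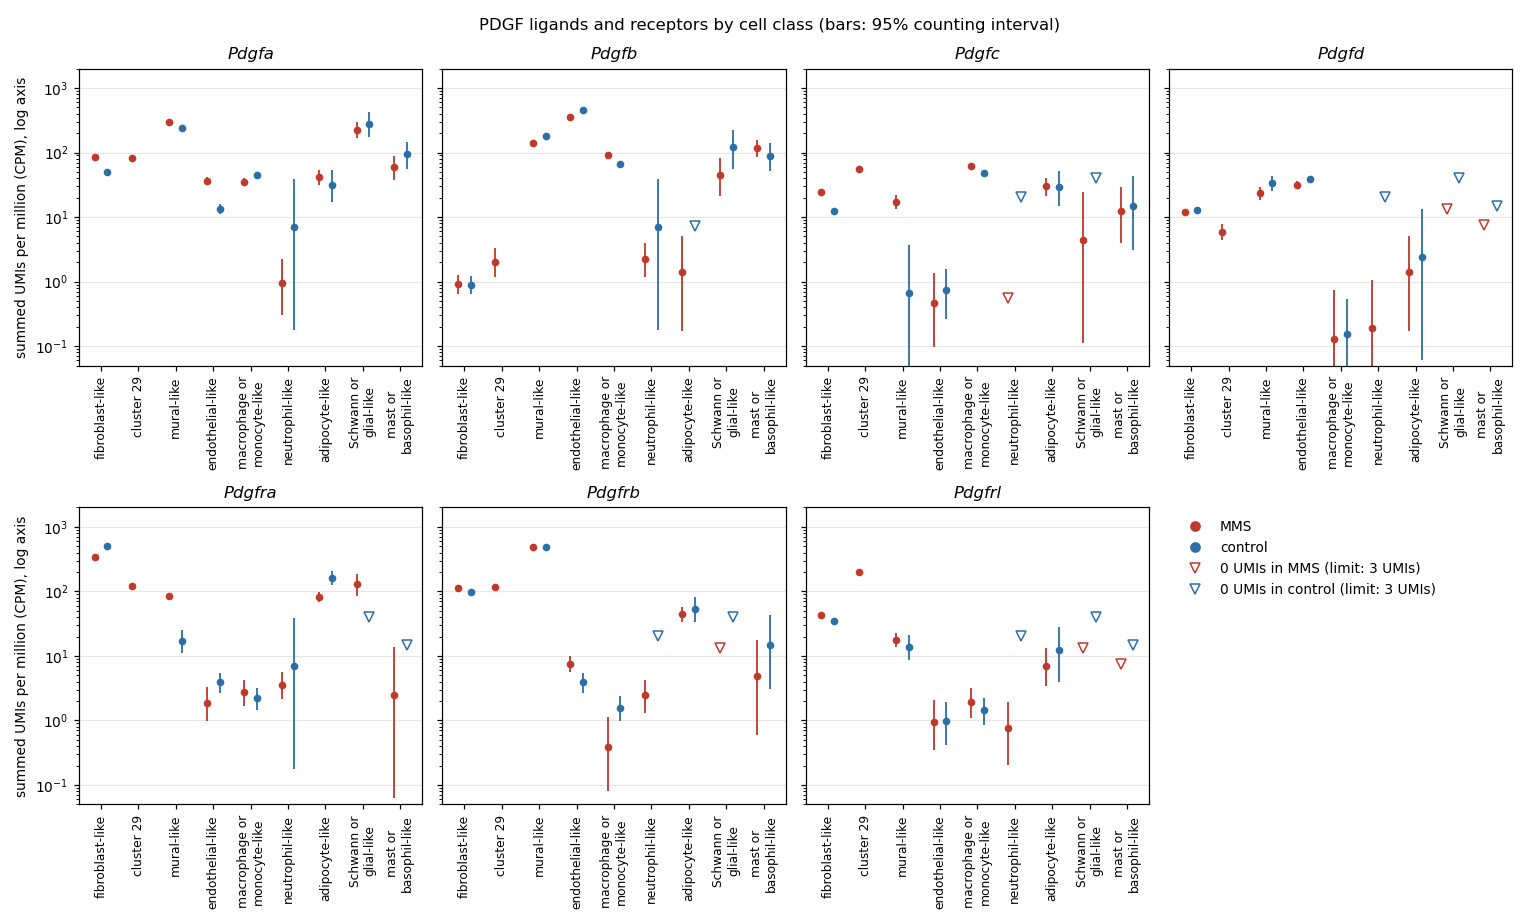
Levels of the 7 genes in each cell class, in CPM on a log axis, MMS left of control, with 95% counting intervals. Endothelial-like cells led for Pdgfb, mural-like cells for Pdgfrb and fibroblast-like cells for Pdgfra, while Pdgfa was spread over several classes. Open triangles mark 0 UMIs and stand at the level of 3 UMIs.

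Pdgfa, the ligand of the alpha receptor, was high in mural-like cells, at 299.6 CPM in MMS and 239.9 CPM in control. Schwann or glial-like cells, 31 from MMS and 9 from control, had 226 CPM in MMS (interval 168 to 297) and 279 CPM in control (interval 173 to 427). Mast or basophil-like cells had 59.5 CPM in MMS and 93.5 CPM in control. Fibroblast-like cells had 85.6 CPM in MMS and 50.1 CPM in control, a log2 ratio of 0.77 (interval 0.70 to 0.85).

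That fibroblast difference was absent or turned round in the clusters with at least 50 cells of both libraries. In cluster 9, led by the lining genes Prg4, Hbegf and Htra4, Pdgfa was at 117 CPM over 509 MMS cells and at 153 CPM over 236 control cells, a log2 ratio of -0.39 (interval -0.51 to -0.28). In cluster 8 it was at 57.8 CPM in MMS and 92.6 CPM in control (-0.68, interval -1.03 to -0.33), and in clusters 1 and 5 the intervals held 0. Cluster 21, which held 629 MMS cells and 49 control cells, had 66.2 CPM in MMS and 67.5 CPM in control. The clusters that held most control cells were low, with 47.9 CPM in cluster 4 and 14.05 CPM in cluster 17. With cells called by lining and sublining markers the pattern was the same for the lining, at 101 CPM in MMS and 127 CPM in control. Sublining-like cells, 86 from MMS and 1736 from control, went the other way, at 74.0 CPM in MMS and 27.2 CPM in control (1.44, interval 1.13 to 1.75), and so did fibroblast-like cells with neither name, at 61.2 CPM in MMS and 42.6 CPM in control. Lining-like cells were 51.6% of fibroblast-like cells in MMS and 12.9% in control. Without sub-cluster 8, the sublining-like ratio was 0.93 (interval 0.38 to 1.44). With both kinds weighted equally, the log2 ratio of Pdgfa was 0.18. A Pdgfa UMI was present in 65.2% of MMS and 34.9% of control fibroblast-like cells, and after thinning each cell to 2000 UMIs in 13.2% and 7.82%. Macrophage or monocyte-like cells were lower in MMS for Pdgfa, at 35.2 CPM against 45.1 CPM in control (-0.36, interval -0.57 to -0.15). Their clusters differed in direction, with 40.5 CPM in MMS and 66.3 CPM in control in cluster 18 (-0.71, interval -0.97 to -0.46), and 27.5 CPM in MMS and 23.1 CPM in control in cluster 16 (0.25, interval -0.15 to 0.65).

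**Figure D2:**
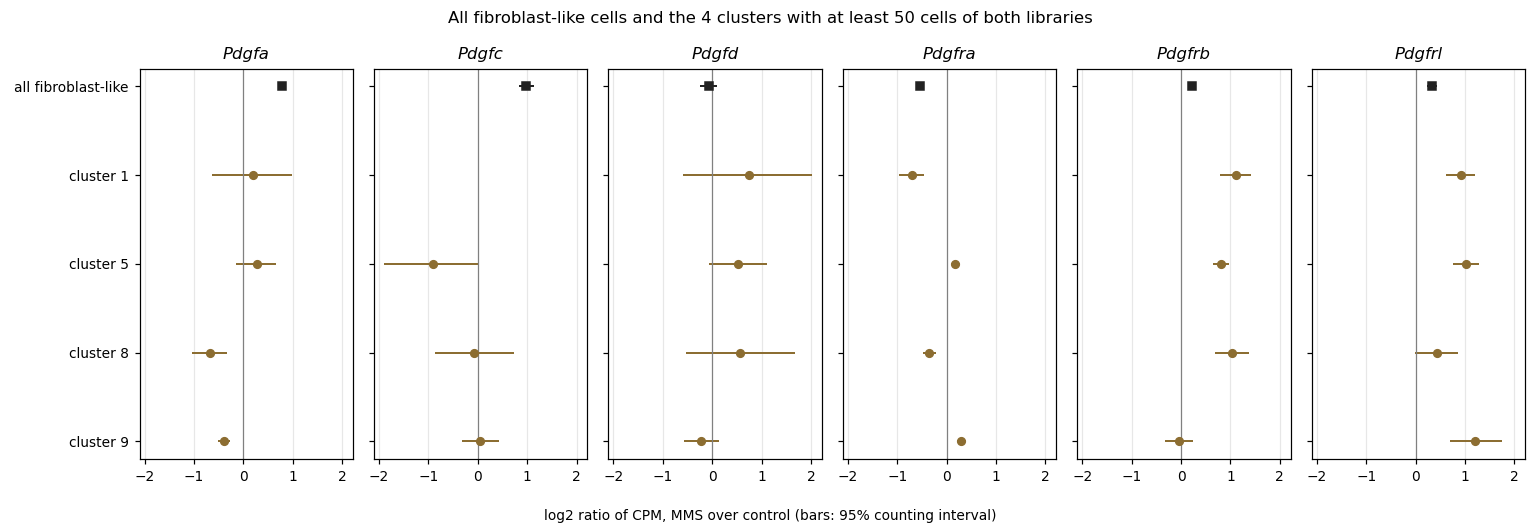
Log2 ratios of MMS over control for 6 of the 7 genes in all fibroblast-like cells (square) and in the 4 fibroblast-like clusters with at least 50 cells of both libraries (circles), with 95% counting intervals. Pdgfa is at 0.77 for the class and at -0.68 and -0.39 in clusters 8 and 9, Pdgfc at 0.98 for the class and 0.04 in cluster 9, and Pdgfrl right of 0 throughout; cluster 1 had too few Pdgfc UMIs for a ratio, and the sparse Pdgfb is not drawn.

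Pdgfb, the ligand that endothelium presents to pericytes, was at 355 CPM in MMS and 451 CPM in control endothelial-like cells, a log2 ratio of -0.35 (interval -0.42 to -0.27). Sub-clusters called arterial-like went the other way, at 598 CPM in MMS and 469 CPM in control (0.35, interval 0.19 to 0.51). Capillary-like cells had 373 CPM in MMS and 461 CPM in control, and venular-like cells 156 CPM in MMS and 181 CPM in control, both with intervals that held 0. Venular-like cells, the lowest of these kinds, were 27.5% of endothelial-like cells in MMS and 2.29% in control, whereas capillary-like cells were 6.52% in MMS and 53.0% in control. Among clusters, Pdgfb was higher in MMS in clusters 2 (584 against 483 CPM) and 22 (571 against 415 CPM) and lower in cluster 7 (391.6 against 477 CPM). A UMI of Pdgfb was present in 79.5% of MMS and 73.2% of control endothelial-like cells. After thinning, which leaves out 62 MMS and 396 control cells, the shares were 47.0% in MMS and 57.3% in control. In thinned fibroblast-like cells, taken as the background, they were 0.211% in MMS and 0.0946% in control. Median depths were 6936.5 UMIs in MMS and 3435 in control endothelial-like cells, and 26957 in MMS and 13742 in control fibroblast-like cells.

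Macrophage or monocyte-like cells were the next large source of Pdgfb, at 90.5 CPM in MMS and 67.5 CPM in control (0.42, interval 0.28 to 0.57). The ratio was larger in cluster 16, led by C1qa, Mrc1 and C1qc, with 65.2 CPM in MMS and 26.9 CPM in control (1.28, interval 0.98 to 1.58). Cluster 18, led by Vsig4, had 108 CPM in MMS and 107 CPM in control. Mast or basophil-like cells had 117 CPM in MMS and 88.6 CPM in control, with overlapping intervals.

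Pdgfc, an alpha-receptor ligand that plasminogen activator of the tissue type can cut to its active form, was at 24.4 CPM in MMS and 12.4 CPM in control fibroblast-like cells. Its log2 ratio there, 0.98 (interval 0.84 to 1.13), was the highest of the 7 in that class. The clusters with at least 50 cells of both libraries did not show it. Pdgfc was at 14.2 CPM in MMS and 13.8 CPM in control in cluster 9, and at 14.1 CPM in MMS and 14.7 CPM in control in cluster 8. In cluster 5 it was at 4.78 CPM in MMS and 8.94 CPM in control. High levels sat partly in cells found mostly or wholly in MMS, at 37.7 CPM in cluster 21 (22.03 CPM in its 49 control cells) and 55.3 CPM in cluster 29. The fibroblast-like cluster 14, mostly from control, was also high, at 38.3 CPM over 239 control cells and 114 CPM over 19 MMS cells. Macrophage or monocyte-like cells had 61.3 CPM in MMS and 48.2 CPM in control (0.35, interval 0.17 to 0.52). Both of their clusters were higher in MMS, with an interval clear of 0 in cluster 18 (0.16 to 0.60) but not in cluster 16 (-0.10 to 0.49). Sublining-like cells had 46.9 CPM in MMS and 13.9 CPM in control (1.75, interval 1.34 to 2.14), but 58 of the 64 MMS UMIs were in 13 cells of sub-cluster 8. Without that sub-cluster, the log2 ratio was -0.34 (interval -1.80 to 0.81). Endothelial-like cells had 3 UMIs in MMS and 6 in control.

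Pdgfd, the beta-receptor ligand, was low in fibroblast-like cells, though above Pdgfb (0.922 CPM in MMS and 0.899 CPM in control), at 12.2 CPM in MMS and 12.8 CPM in control (-0.07, interval -0.25 to 0.10). It was higher in endothelial-like cells, at 31.5 CPM in MMS and 39.02 CPM in control (-0.31, interval -0.57 to -0.05). Of the named endothelial kinds, arterial-like cells had the most, with 64.4 CPM in MMS and 64.0 CPM in control. In cluster 22, led by the arterial genes Rbp7 and Sema3g, it was at 89.2 CPM in MMS and 142 CPM in control. The 4 endothelial-like clusters with at least 50 cells of both libraries were each lower in MMS, with an interval clear of 0 in cluster 22. Mural-like cells had 23.4 CPM in MMS and 33.4 CPM in control. Macrophage or monocyte-like cells had 1 Pdgfd UMI in MMS and 2 in control. Both CUB-domain ligands were thus found in fibroblast-like cells, whereas macrophages held mainly Pdgfc and endothelium mainly Pdgfd. Mural-like cells held both in MMS, with Pdgfc at 17.3 CPM (0.655 CPM in control). Adipocyte-like cells also held Pdgfc, at 29.8 CPM in MMS and 29.2 CPM in control.

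**Figure D3:**
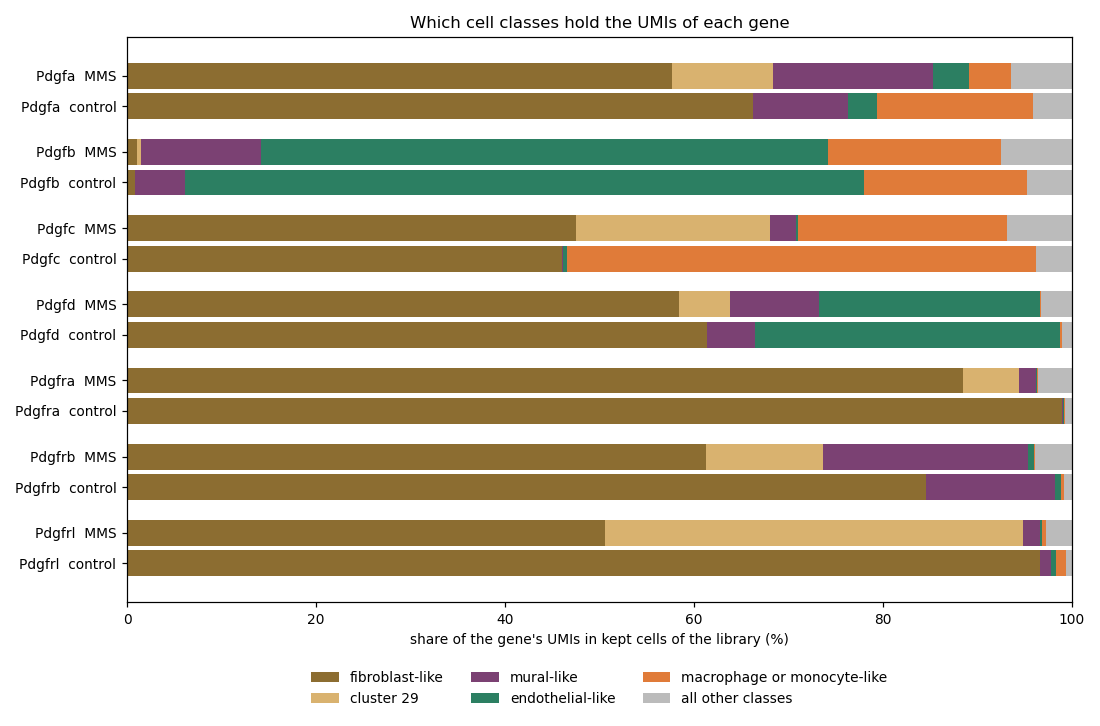
Share of each gene's UMIs held by each cell class, MMS above control, in percent of the gene's UMIs in kept cells of that library. Endothelial-like cells held 59.9% of Pdgfb UMIs in MMS and 71.9% in control, and cluster 29 held 44.3% of Pdgfrl UMIs in MMS.

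Fibroblast-like cells held 57.7% of Pdgfa UMIs in MMS and 66.2% in control, mural-like cells 16.9% in MMS and 10.1% in control, and macrophage or monocyte-like cells 4.40% in MMS and 16.5% in control. For Pdgfc, macrophage or monocyte-like cells held 22.1% in MMS and 49.6% in control, while fibroblast-like cells held 47.5% in MMS and 46.0% in control and cluster 29 held 20.5% in MMS. Endothelial-like cells held 23.4% of Pdgfd UMIs in MMS and 32.2% in control. These shares follow the number and depth of cells in each class as well as the level per cell.

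Pdgfra, the alpha receptor, was mostly found in fibroblasts: fibroblast-like cells held 88.4% of its UMIs in MMS and 98.9% in control. Its level there was 343 CPM in MMS and 501 CPM in control, a log2 ratio of -0.55 (interval -0.58 to -0.52). A UMI was present in 91.9% of MMS and 96.0% of control fibroblast-like cells, and after thinning in 46.3% and 59.1%. In thinned macrophage or monocyte-like cells, which should lack the gene, the shares were 1.01% in MMS and 0.389% in control, at median depths of 14750 and 12245 UMIs.

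Clusters split on the direction of Pdgfra. It was higher in MMS in clusters 9 (247 against 201 CPM, log2 ratio 0.30) and 5 (584 against 517 CPM, 0.18) and lower in clusters 1 (314 against 513 CPM, -0.71) and 8 (467 against 595 CPM, -0.35), with no interval holding 0. Lining-like cells had 307 CPM in MMS and 315 CPM in control (-0.04, interval -0.10 to 0.02), and sublining-like cells 407 CPM in MMS and 556 CPM in control. Cluster 29 had 121 CPM and cluster 21 had 390.4 CPM in MMS and 329.7 CPM in control. Adipocyte-like cells, 63 from MMS and 32 from control, had 81.7 CPM in MMS and 163 CPM in control. Schwann or glial-like cells, 31 from MMS and 9 from control, had 29 UMIs in MMS and 0 in control. The bound, at least 3.22-fold higher in MMS, rests on few cells, and those of control held 75230 UMIs in all.

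Pdgfrb, the beta receptor gene at 61045150 to 61085061 on chromosome 18, was highest in mural-like cells, at 479 CPM in MMS and 489 CPM in control (-0.03, interval -0.15 to 0.10). Fibroblast-like cells had 113 CPM in MMS and 96.6 CPM in control (0.23, interval 0.17 to 0.29). The gap was wider inside clusters. Pdgfrb was at 342 CPM in MMS and 160 CPM in control in cluster 1 (1.10, interval 0.79 to 1.41), at 213 and 121 CPM in cluster 5 (0.82, interval 0.65 to 0.98) and at 113 and 55.3 CPM in cluster 8 (1.03, interval 0.69 to 1.38). The lining cluster 9 stood apart with 22.7 CPM in MMS and 23.5 CPM in control. Cluster 29 had 119 CPM and cluster 21 had 187 CPM in MMS and 129 CPM in its 49 control cells.

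The ratio of alpha-receptor to beta-receptor UMIs in fibroblast-like cells was 3.03 in MMS and 5.19 in control. In fibroblast-like cells that took neither the lining nor the sublining name it was 1.961 in MMS and 5.08 in control, and in lining-like cells 5.4 in MMS and 7.74 in control. Both receptors were detected in 66.2% of MMS and 62.2% of control fibroblast-like cells, and after thinning in 9.77% and 10.4%. In the unnamed fibroblast-like cells the thinned shares were 15.8% in MMS and 10.8% in control. Transcript ratios say nothing of receptor protein.

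Pdgfrl, the kinase-free relative of the receptors, at 40926212 to 40990785 on chromosome 8, was at 43.5 CPM in MMS and 34.4 CPM in control fibroblast-like cells (0.34, interval 0.24 to 0.44). It was the gene of the family with a higher level in MMS in each of the 4 fibroblast-like clusters with at least 50 cells of both libraries. Clusters with fewer cells went both ways. Cluster 4 was at 116 CPM in MMS and 57.1 CPM in control, and cluster 6 at 7.33 CPM in MMS and 22.2 CPM in control. In the 4 clusters, the values were 359 CPM in MMS and 190 CPM in control in cluster 1 and 92.7 and 45.6 CPM in cluster 5. They were 53.8 and 40.0 CPM in cluster 8, and 14.4 and 6.27 CPM in cluster 9. The interval of the log2 ratio in cluster 8 just reached 0 (-0.01 to 0.87). After thinning, 30.8% of MMS and 31.25% of control cells of cluster 1 had a UMI. In clusters 5, 8 and 9 the thinned share was higher in MMS. Sublining-like cells had 116 CPM in MMS and 32.3 CPM in control (1.84, interval 1.59 to 2.09). Of the 158 MMS UMIs, 126 were in fibroblast sub-cluster 0, which held 45 of 86 MMS and 142 of 1736 control sublining-like cells. Without it, the level was 31.4 CPM in MMS and 24.8 CPM in control (0.34, interval -0.22 to 0.85). In cluster 29 it was at 199 CPM (interval 190 to 209 CPM) with a UMI in 92.7% of cells, and these 233 cells held 44.3% of the MMS library's Pdgfrl UMIs. The ratio over all kept cells thus rests in large part on a cluster that the control library did not have.

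In the vessel wall, the named mural sub-clusters kept the receptors apart. Pericyte-like cells, 62 from MMS and 50 from control, had 1394 CPM of Pdgfrb in MMS and 1157 CPM in control (0.27, interval 0.08 to 0.46), the highest level of that gene in any class or named sub-class. They had 0 Pdgfra UMIs in both libraries, and so did the 22 MMS and 14 control smooth muscle-like cells. Pdgfa was at 409.9 CPM in MMS and 353 CPM in control in pericyte-like cells and at 651 CPM in MMS and 257 CPM in control in smooth muscle-like cells (1.34, interval 0.61 to 2.17). Pdgfrb in smooth muscle-like cells was at 416 CPM in MMS and 818 CPM in control (-0.98, interval -1.44 to -0.49). With so few smooth muscle-like cells, single cells weigh heavily in these values. The smooth muscle-like ratios also set largely different sub-clusters side by side. Of these cells, 20 of 22 from MMS were in mural sub-cluster 7 and 13 of 14 from control were in sub-cluster 4. Over both libraries, Pdgfa was at 653 CPM in sub-cluster 7 and 233 CPM in sub-cluster 4, and Pdgfrb at 389 and 1000 CPM.

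**Figure D4:**
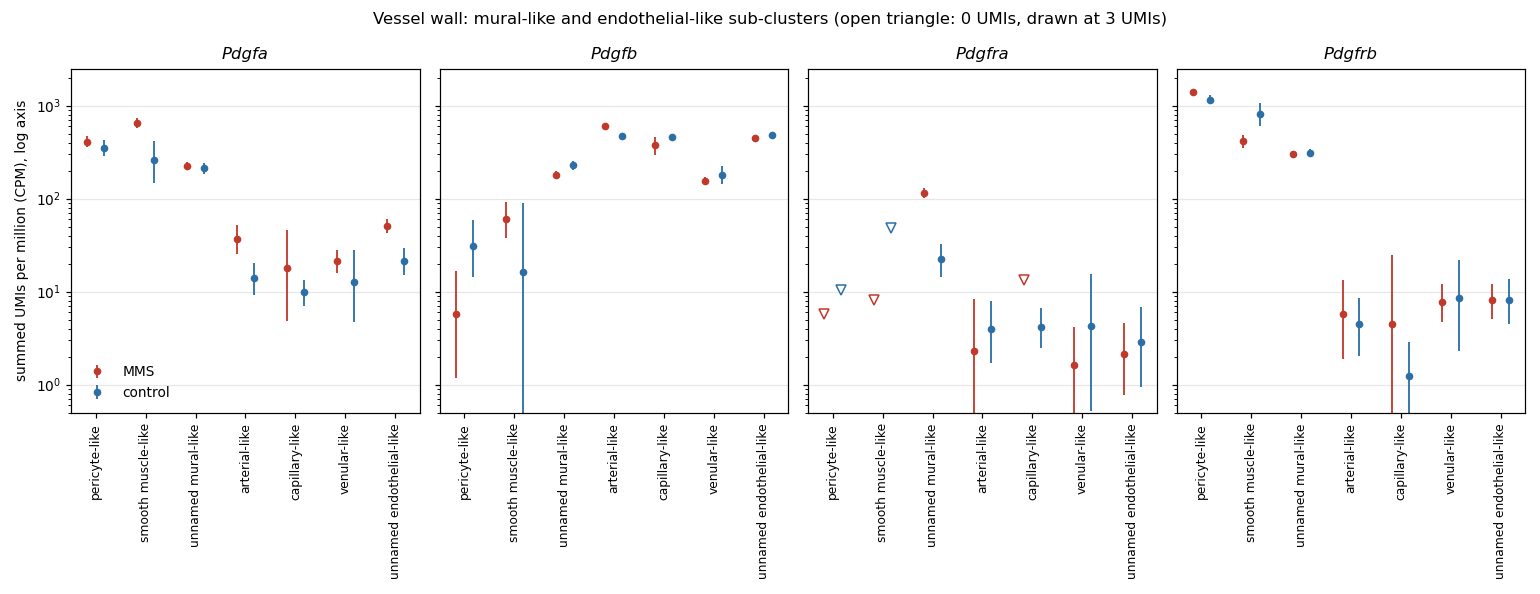
Levels of Pdgfa, Pdgfb, Pdgfra and Pdgfrb in mural-like and endothelial-like sub-clusters, in CPM on a log axis, MMS left of control, with 95% counting intervals. Pdgfrb peaks in pericyte-like cells and Pdgfb in arterial-like cells. Pdgfra of the mural-like class appears in its unnamed cells, with 115 CPM in MMS and 22.1 CPM in control.

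Taking all mural-like cells, Pdgfra was at 85.01 CPM in MMS and 17.0 CPM in control (2.32, interval 1.74 to 2.96), and Pdgfc at 60 UMIs in MMS and 1 in control (4.73, interval 2.19 to 10.05). Of the Pdgfra UMIs, 275 of 294 in MMS and 23 of 26 in control were in sub-cluster 6, with 31 MMS and 7 control cells. These cells held 1218412 UMIs of all genes in MMS and 186299 in control, so Pdgfra was not past 2-fold within that sub-cluster. Fibroblast markers summed to 18439.4 CPM in that sub-cluster, more than in any other mural-like one. They summed to 13077.5 CPM in mural sub-cluster 8, with Pdgfra at 203 CPM, and to 12808.3 CPM in sub-cluster 5, with Pdgfra at 0. Over all mural-like cells, the 10 fibroblast markers summed to 10225 CPM in MMS and 5158 CPM in control, with 9 of 10 higher in MMS, and the 9 lining markers to 24727 CPM in MMS and 1580 CPM in control, with 9 of 9 higher. None of these was at 0 in either library. Of the Pdgfc UMIs in MMS, 35 were in the same sub-cluster, and 20 were in smooth muscle-like cells, where control had 0, a level at least 1.14-fold higher in MMS. Pdgfb in mural-like cells, at 139.7 CPM in MMS and 182 CPM in control, was at 5.67 CPM in MMS and 31.2 CPM in control in pericyte-like cells. In the unnamed mural-like cells it was at 179 CPM in MMS and 227 CPM in control. Smooth muscle-like cells, which came largely from different sub-clusters in each library, had 22 Pdgfb UMIs in MMS (60.2 CPM) and 1 in control (16.04 CPM). At a finer clustering (resolution 2.0) its log2 ratio in mural-like cells reversed, to 0.42, and that of Pdgfrb was -0.93. The 10 endothelial markers summed to 3015 CPM in MMS and 5257 CPM in control mural-like cells. The part of these markers' cells in the class values was not tested beyond this.

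Endothelial-like cells had little Pdgfa, at 36.5 CPM in MMS and 13.5 CPM in control (1.44, interval 1.11 to 1.78). Their cells sat in different clusters: cluster 12 held 32.4% of MMS and 6.48% of control cells, and cluster 7 held 14.6% of MMS and 43.9% of control cells. Within the 4 clusters with at least 50 cells of both libraries, the log2 ratios of Pdgfa were 0.83 (cluster 2), 0.04 (cluster 7), 0.63 (cluster 12) and 0.66 (cluster 22). The interval was clear of 0 in cluster 12 alone, and none was past 2-fold. The 12 mural markers, of the class with most Pdgfa, summed there to 857 CPM in MMS and 396 CPM in control, with 10 of 12 higher in MMS and none at 0, and their part was not tested. The 2 receptors were low, Pdgfra at 1.88 CPM in MMS and 3.88 CPM in control and Pdgfrb at 7.51 and 3.88 CPM (48 and 32 UMIs).

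Counted as past 2-fold among genes with at least 10 UMIs, 0 of 7 members were so in fibroblast-like cells, where 20.0% of 16124 genes were. In mural-like cells 2 of 7 were, Pdgfc and Pdgfra, both higher in MMS, where 14.6% of genes were in either direction, 8.72% higher and 5.92% lower. Pdgfra was so for the class, not within mural sub-cluster 6, which held most of its mural-like UMIs. In endothelial-like cells 2 of 6 were, Pdgfa higher (for the class, not within clusters) and Pdgfra lower, against 13.6% of genes, 8.78% higher and 4.77% lower. In macrophage or monocyte-like cells 1 of 6 was, Pdgfrb, with 3 UMIs in MMS and 21 in control, against 9.80% of genes, 5.10% higher and 4.71% lower. That Pdgfrb value reversed when doublets were kept (0.93). At a limit of 5% mitochondrial UMIs it reversed too (2.20), as did Pdgfra in endothelial-like cells (1.12).

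Of 11 measured genes of ligand activation and co-receptors in fibroblast-like cells, 4 were at least 2-fold higher in MMS, against 10.1% of all genes, and 1 at least 2-fold lower, against 9.83%. The list's median log2 ratio was 0.55 and that of all genes 0.06. Pcsk5, a furin-type convertase, was at 122 CPM in MMS and 28.2 CPM in control (2.11, interval 2.03 to 2.20). Plat, the tissue plasminogen activator that cuts PDGF-C, was at 57.1 CPM in MMS and 21.7 CPM in control (1.40). Plau, the urokinase that cuts PDGF-D, was at 11.6 CPM in MMS and 41.0 CPM in control (-1.83, interval -1.97 to -1.68). Nrp1, a co-receptor that also binds VEGF, was at 64.5 CPM in MMS and 121 CPM in control (-0.91). Furin, a convertase that matures PDGF-A and PDGF-B, was at 95.4 CPM in MMS and 41.1 CPM in control; it was picked after its values were seen. In macrophage or monocyte-like cells 3 of 10 were at least 2-fold higher, against 5.10% of all genes, and 0 lower, against 4.71%.

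Of 29 measured genes next to the receptor, 1 was at least 2-fold higher and 1 lower in MMS fibroblast-like cells, with a median of -0.08. Over all genes, 10.1% were at least 2-fold higher and 9.83% lower. Pik3r1, a regulatory subunit of the lipid kinase PI3K, was at 58.0 CPM in MMS and 159 CPM in control (-1.45), and Pik3cb, a catalytic subunit, at 3.93 and 1.95 CPM (1.01). The adaptor Nck1 had a log2 ratio of -0.66 and Pik3r2 one of 0.39. Of 14 negative regulators 1 was at least 2-fold higher and 2 lower, against the same 10.1% and 9.83%, with a median of -0.13. Cblb, a ubiquitin ligase, was at 18.9 CPM in MMS and 48.9 CPM in control, and Socs1 at 28.3 and 60.1 CPM. The phosphatases Ptpn1 and Ptpn2 were higher in MMS, with log2 ratios of 0.91 and 0.78.

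Of 18 measured genes that the ERK kinases switch on, 13 were lower in MMS fibroblast-like cells, with a median log2 ratio of -0.58. Of these 18, 5 were at least 2-fold lower, against 9.83% of all genes, and 1 was at least 2-fold higher, against 10.1%. Myc was at 24.8 CPM in MMS and 90.9 CPM in control (-1.87), and Spry4, a feedback inhibitor, at 2.81 and 9.47 CPM (-1.75). Etv4 was at 1.89 CPM in MMS and 0.544 CPM in control (1.80), and Dusp5 had a log2 ratio of 0.60. Endothelial-like cells differed in direction, with 7 of 17 at least 2-fold higher in MMS, against 8.78% of genes. None was at least 2-fold lower, against 4.77%, and the median was 0.70. Myc there had a log2 ratio of 1.58 and Dusp5 one of 1.71. Tissue digestion also raises immediate early genes. In fibroblast-like cells 17 of 17 of that list were lower in MMS, 12 of them at least 2-fold, against 9.83% of all genes. The median was -1.29. In endothelial-like cells, where the ERK list had a positive median, 10 of 17 were lower, with a median of -0.29. Atf3 was at 136 CPM in MMS and 719 CPM in control fibroblast-like cells, and Jun at 697 and 2476 CPM, while Ier3 (-0.05) and Dusp1 (-0.57) were nearest to level. Egr1 and Ier3 belong to both lists, and the part of digestion was not tested.

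**Figure D5:**
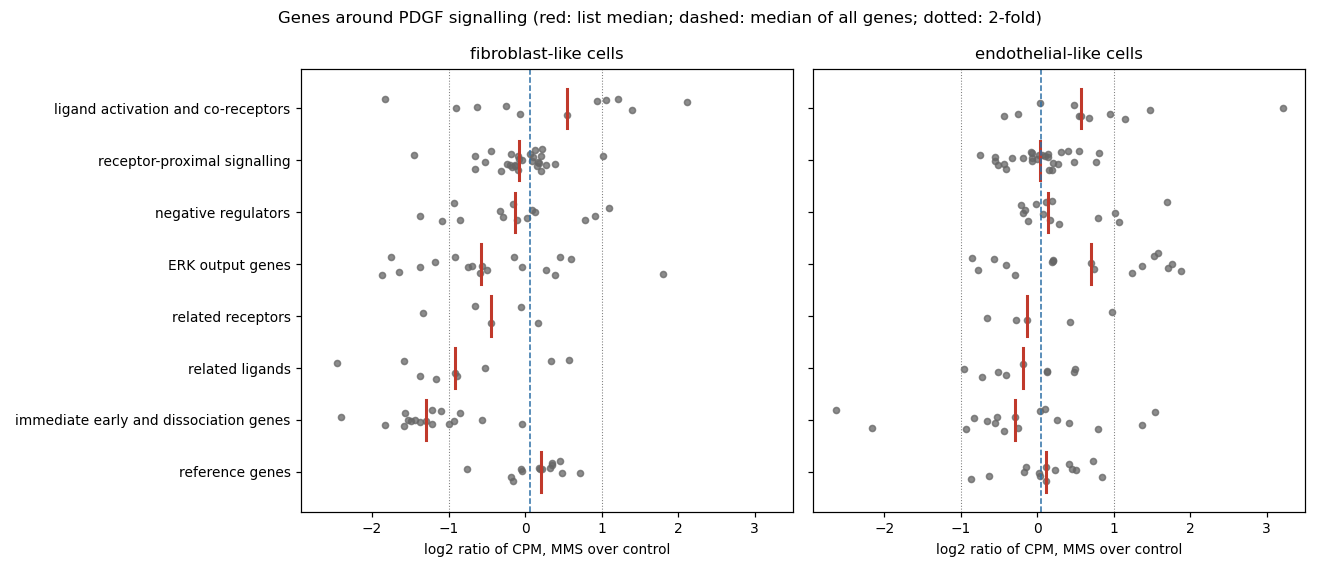
Log2 ratios of MMS over control for the genes of 8 lists in fibroblast-like and endothelial-like cells; each point is a gene, the red line the list's median and the dashed line the median of all genes. In fibroblast-like cells the ERK output genes (median -0.58) and the immediate early genes (-1.29) lie left of the reference genes (0.20).

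Kin of the family were compared in the same way. Of 9 related ligands, 4 were at least 2-fold lower in MMS fibroblast-like cells, against 9.83% of all genes, and 0 higher, against 10.1%, with a median of -0.92. Vegfa was at 35.8 CPM in MMS and 107 CPM in control (-1.58) and Pgf, placental growth factor, at 2.16 and 11.9 CPM (-2.46), whereas Vegfd (0.57) and Vegfb (0.34) were higher. Of 5 related receptors measured, 1 was at least 2-fold lower, Kdr (-1.33), against 9.83% of all genes, and 0 higher, against 10.1%. Flt1 was at -0.66, Kit at -0.44 and Csf1r at 0.16, all, like Kdr, under 5 CPM in fibroblast-like cells. Of 14 reference genes 0 passed 2-fold, against 20.0% of all genes, with B2m at 0.72, Gusb at 0.48 and Tbp at -0.18.

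The genes whose levels ran most like each member were taken by Pearson correlation of log2(CPM + 1) over 15 class-by-library sums from 10 classes, which share 2 libraries and differ in depth. These are descriptions. Pdgfra was most like Lrrn4cl (r = 0.988), Pitx1 and the proteoglycan gene Dcn, and Pdgfrl most like Loxl3, a lysyl oxidase, Thbs2 and Zfp469 (r = 0.971 to 0.981). Pdgfrb was most like Ror1, Jph1 and Hspb2 (0.969 to 0.972), and Pdgfa like Atp2a2, the calcium pump of muscle, Rdh13 and Wtip (0.942 to 0.951). Pdgfb was most like Slc16a13, Sh2b3 and Cd300lg (0.939 to 0.979), Pdgfd like Lrrc32, Meox2 and Ldb2 (0.980 to 0.984), and Pdgfc like Pmepa1, Fmn1 and Adam9 (0.938 to 0.947). Within the family, r was 0.880 between Pdgfra and Pdgfrl, 0.791 between Pdgfrb and Pdgfrl and 0.745 between Pdgfra and Pdgfrb. The ligand Pdgfa ran as close to Pdgfrb (0.794), while Pdgfb and Pdgfra ran apart (-0.601).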

How the data were processed

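The authors deposited raw UMI counts for each gene in each barcode. Cell Ranger 5.0.0 made them per the file headers, whereas Cell Ranger 2.0.0 and mm10 stand in the submitters' processing notes. The lowest barcode held 500 UMIs. Of 32285 gene identifiers, 32158 matched GENCODE M21.

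Barcodes were kept from 1000 UMIs and 500 genes upward, up to a mitochondrial share of 10%. Doublets were called by scrublet (scanpy 1.11.5, expected rate 0.06) and removed, 106 of 3871 MMS and 184 of 7075 control cells. Both libraries were clustered together without integration (2000 variable genes, 30 components, 15 neighbours, Leiden resolution 1.0 with igraph 0.11.9), leaving out the 7 members, which gave 30 clusters. A class took a cluster where its marker score was at least 1.5 and led by 0.3, with 3 markers detected and no more markers of another class among the top 10 genes. Sub-clusters needed a score of 0.5. All of these naming limits were chosen with the clusters in view. Clusters 13 (cycling), 15 (antigen presentation) and 29 stayed unnamed.

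UMIs were summed per class and library. Ratios have exact conditional binomial intervals, levels exact Poisson intervals and shares exact Clopper-Pearson intervals (scipy 1.17.1), for counting error only. A gene with 0 UMIs took 3 counts, and with at most 3 in both libraries got no ratio. The ratio was tested on simulated sums. Members and lists were chosen with earlier results of these data known. From each list, the 2 highest and 2 lowest ratios in fibroblast-like cells with at least 50 UMIs are named, and for each member the 3 genes most like it with at least 200 UMIs. A2m was left out under 10 UMIs, and some genes that the rule or the counts include are not reported here by name. Values within single clusters were added after the data had been seen.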

Additional observations from a re-analysis of the deposited data

Results flagged for a closer look

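Pdgfra differed in direction between mural-like cells, with a log2 ratio of MMS over control of 2.32, and endothelial-like cells, with -1.05. With 1 library per group this difference was not tested. The endothelial-like value rests on 12 UMIs in MMS and 32 in control. Of the 294 MMS mural-like UMIs, 275 were in sub-cluster 6, whose 31 MMS and 7 control cells had high fibroblast markers. Within that sub-cluster Pdgfra was not past 2-fold. No group had 4 or more libraries, so no library could be set against others of its group.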

How the results depend on the processing

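No paired analysis was possible because each group is 1 library and no result comes from a test. Of 289 alternative values of log2 ratios, 237 stayed within the counting interval. The sign changed in 23: in 4, called reversed below, the interval of the reported value was clear of 0, and in the other 19 it held 0. All values here are log2 ratios of MMS over control, in fibroblast-like cells where no class is named. A minimum of 2000 UMIs gave 1.27 for Pdgfc, -0.74 for Pdgfra and 0.96 for Pdgfrl, with 1 receptor-proximal gene and 2 related receptors past 2-fold. A mitochondrial limit of 5% gave 0.70 for Pdgfc, -0.60 for Pdgfra, 0.13 for Pdgfrb and 0.19 for Pdgfrl, with 2 related receptors past 2-fold, and reversed Pdgfra in endothelial-like cells (1.12) and Pdgfrb in macrophage or monocyte-like cells (2.20). A limit of 20% left 1 receptor-proximal gene past 2-fold. With doublets kept, Pdgfra was at -0.58 and Pdgfrb in macrophage or monocyte-like cells reversed (0.93). Resolution 0.5 gave 1.25 for Pdgfc, -0.71 for Pdgfra and 0.99 for Pdgfrl, with 1 receptor-proximal gene past 2-fold. Resolution 2.0 gave -0.93 for Pdgfrb in mural-like cells and reversed Pdgfb there (0.42), with Pdgfd there at 0.76 (reported: -0.51). A mean over cells gave 0.91 for Pdgfa, 1.15 for Pdgfc, 0.41 for Pdgfrb, 0.45 for Pdgfrl, 0.15 for Pdgfrb in mural-like cells and -0.23 for Pdgfb in endothelial-like cells. Equal weights for lining-like and for sublining-like cells gave 0.18 for Pdgfa, 1.29 for Pdgfc, 0.17 for Pdgfd, -0.29 for Pdgfra, 0.47 for Pdgfrb and 1.51 for Pdgfrl. The sublining-like values behind these rest on single sub-clusters: without sub-cluster 8 Pdgfc was at -0.34, and without sub-cluster 0 Pdgfrl was at 0.34 and Pdgfrb at -0.50, where all sublining-like cells gave 1.75, 1.84 and 0.47. These were chosen after seeing the data. Without the 20 genes with most UMIs, Pdgfra was at -0.50. With the unnamed clusters that score highest for fibroblast markers, chosen after seeing the data, Pdgfc was at 1.25, Pdgfra at -0.74 and Pdgfrl at 0.96. Pericyte-like and smooth muscle-like cells alone, also chosen after seeing the data, gave 0.60 for Pdgfa and -0.14 for Pdgfrb, and no value for Pdgfra, which had 0 UMIs there. The smooth muscle-like cells among them came largely from different sub-clusters in each library. Thinned to 2000 UMIs, the share of cells with a UMI in MMS minus control was 5.39 points for Pdgfa, 2.95 for Pdgfc, -12.8 for Pdgfra and 2.35 for Pdgfrl. It was -0.243 for Pdgfd and -10.3 for Pdgfb in endothelial-like cells. In these 2 cases the unthinned share was higher in MMS, while the thinned difference had the sign of the reported log2 ratio. Beyond the makeup of each setting, the cause was not tested. Depth limits the sparse values: Pdgfrb in macrophage or monocyte-like cells rests on 3 UMIs in MMS and 21 in control.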
